A study of Homo sapiens with 6 samples.

Results

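Histone lysine methyltransferases and demethylases were followed in UM-SCC1 after transfection of miR-204-5p mimics. A gene was taken into the set when its symbol began with KDM, KMT, SETD or NSD and a digit, or when it was EHMT1, EHMT2, SUV39H1, SUV39H2, SETDB1, SETDB2, DOT1L or ASH1L. The rule found 46 of the 14959 genes in the deposited table: 22 methyltransferases of histones, 18 demethylases and 6 SET-domain proteins with other or unsettled substrates. EZH1 and EZH2, the methyltransferases of H3K27, carry other symbols and lie outside the rule.

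UM-SCC1 is an established cell line from a head and neck squamous cell carcinoma. RNA-seq was performed on 3 cultures that received miR-204-5p mimics, synthetic duplexes used by the cell like the mature miRNA, and on 3 cultures that received control mimics, each collected 48 h later. The mimics were introduced transiently into a single cell line, and the series describes the cultures of each group as independent experiments. The values are FPKM, fragments per kilobase of transcript scaled to the mapped fragments of each library, so levels of different genes are given per length. Log2FC stands for the fitted difference, miR-204-5p mimics minus control mimics, on the log2(FPKM + 1) scale, which understates changes of low genes.

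Methyl groups on histone lysines are written by SET-domain enzymes and by DOT1L, and are removed by the flavin-dependent KDM1 enzymes or by JmjC enzymes. Methylation of H3K4 marks promoters and enhancers, that of H3K36 and H3K79 transcribed genes, that of H3K9 and H3K27 silenced chromatin, and that of H4K20 is tied to the cell cycle and to compact chromatin. Several of these enzymes, among them KMT2D, KMT2C, NSD1 and SETD2, are known from recurrent mutations in squamous carcinomas.

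The mature miRNA is shown first, because matches to its seed are the sequence feature along which the genes are compared below. The sequence is that of RefSeq on GRCh38.p14, where it lies on the minus strand at chr9:70810031-70810052, and the seed (bases 2 to 8) is in capitals.
hsa-miR-204-5p: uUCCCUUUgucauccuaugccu

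Sites for this seed were sought along the transcript strand of annotated 3'UTRs in GENCODE 29 (GRCh38). A match to the whole seed followed by A, AAAGGGAA, is called an 8mer, the match without that A, AAAGGGA, a 7mer-m8, and AAGGGAA, which lacks the pairing of base 8, a 7mer-A1. The sites of 6 genes are shown because they include the largest decreases in the set and, for contrast, an 8mer gene and a 7mer-m8 gene that did not pass the test. Capitals mark the match, the coordinates are those of the match, and up to 11 bases are given on each side.
KMT5A, 8mer, exon 8, plus strand, chr12:123407764-123407771: aaagtgccctcAAAGGGAAttgaatttttt
ASH1L, 7mer-m8, exon 28, minus strand, chr1:155337256-155337262: actcaaaatccAAAGGGAtagggccagga
KMT2A, 7mer-A1, exon 36, plus strand, chr11:118525156-118525162: caaaagtgaccAAGGGAAtctccgcacaa
KDM5C, 7mer-m8, exon 24, minus strand, chrX:53191856-53191862: ctcaagctcccAAAGGGAtttttttgtta
SETDB2, 8mer, exon 15, plus strand, chr13:49493325-49493332: atttttgtgcaAAAGGGAAtattatggatc
DOT1L, 7mer-m8, exon 28, plus strand, chr19:2231386-2231392: acgtggcctccAAAGGGAgccacggagga

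Most of the enzymes that changed were lower with miR-204-5p mimics. At a Benjamini-Hochberg adjusted p-value under 0.05 from limma, fitted over the whole table, 22 of the 46 genes were lower and 2 were higher. Of all 14959 genes, 16.8% were lower and 23.9% higher by the same criterion, together 40.8%. The median log2FC was −0.22 for the set and 0.03 for all genes. The 22 decreases were moderate, with log2FC values from −0.82 for KMT5A to −0.17 for KDM5A. Writers and erasers were both among them, with 10 of 22 methyltransferases of histones and 11 of 18 demethylases called lower. In 24 genes every culture with miR-204-5p mimics lay below every control culture, against 22.7% of all genes, and in 5 genes above, against 30.9%. These are bulk values from cultures, in which a smaller share of expressing cells and less RNA per cell cannot be told apart.

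**Figure D1:**
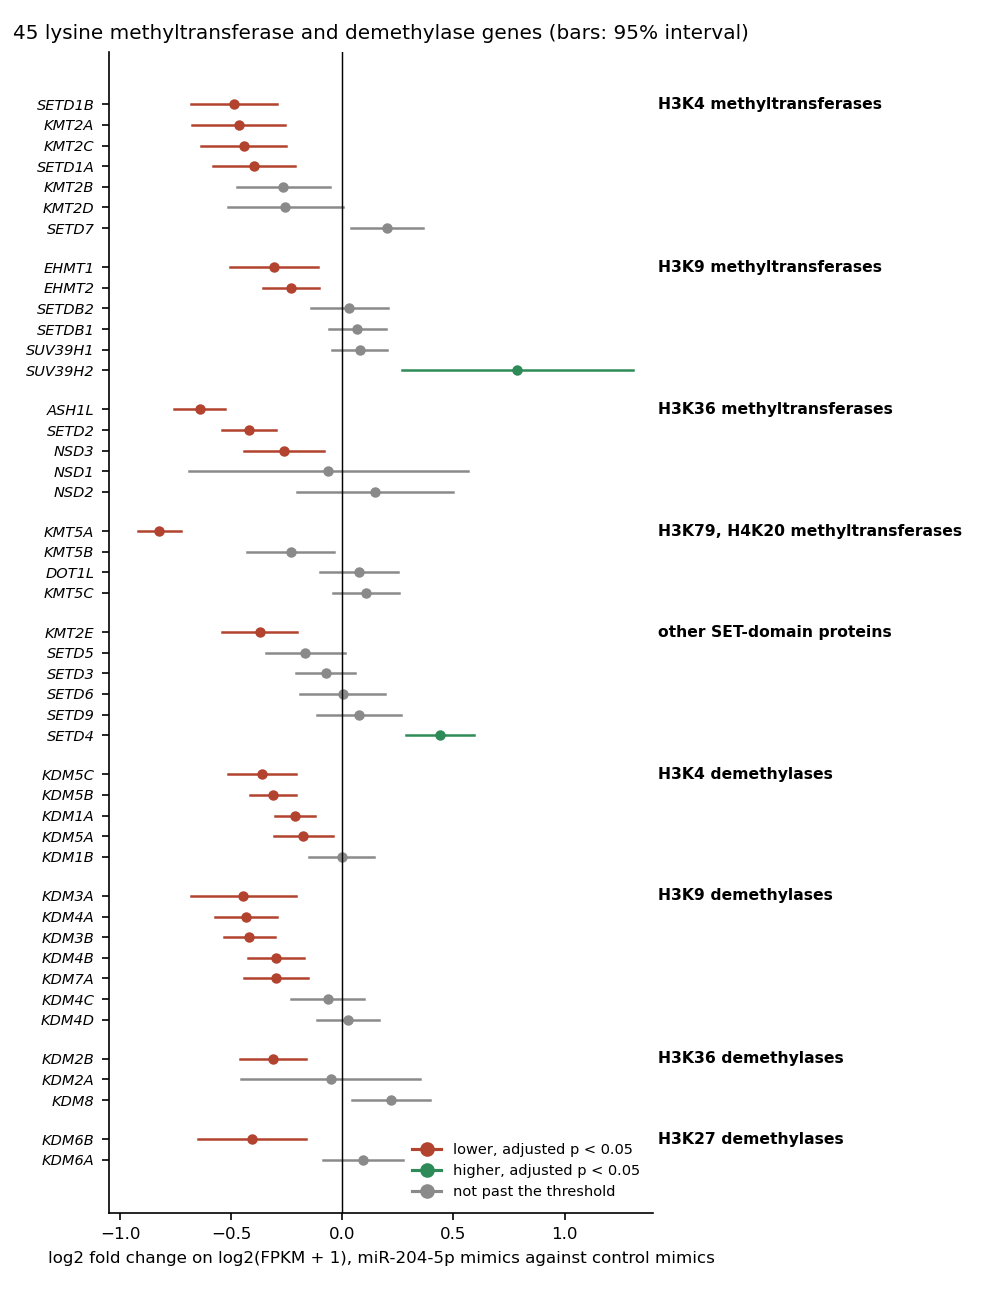
Log2FC on the log2(FPKM + 1) scale, miR-204-5p mimics against control mimics, for 45 genes of the set grouped by the lysine they act on (points), with the 95% interval from limma (bars). Decreases past the threshold run from −0.82 for KMT5A to −0.17 for KDM5A, and SETD4 and SUV39H2 are the genes called higher; the Y-linked member is left out.

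Before the single genes, the libraries themselves differed in a way that touches them. Mimics replicate 1 had the lowest value of its group for 28 of the 46 genes and control mimics replicate 3 for 30, whereas over all genes averaging 1 FPKM or more these libraries were lowest for 37.3% and 33.1%. For genes with a listed transcript of at least 5000 bases the shares were 54.4% and 45.7%. When both libraries were left out, an alternative chosen after the data had been seen, 15 of the 46 genes were lower and 1 was higher, SETD4, and 11.7% of all genes were then called lower. All 15 were among the 22. Spearman correlations between libraries across genes were 0.990 to 0.991 within groups and 0.973 to 0.976 between groups.

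Markers of the labelled cell type moved as well. All 12 markers of squamous epithelium were in the table, of which 7 were lower (58.3%) and 4 higher (33.3%), beside 16.8% and 23.9% of all genes. The summed level of the 12 markers was 956 to 1045 FPKM per library with miR-204-5p mimics and 1068 to 1098 with control mimics. TP63, the transcription factor of squamous cells, averaged 27.4 FPKM with the mimics and 55.9 without (log2FC −1.01), and the desmosomal cadherin DSG3 3.99 and 9.05 (−1.01). KRT5 and KRT14 were called lower (log2FC −0.43 and −0.51), SFN was called higher (0.26), and KRT17 did not pass the threshold. These 4 genes were above 80 FPKM in every library. KRT6A, the least abundant marker, averaged 2.90 and 1.24 FPKM and was called higher.

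Of the other cell types, 4 of 7 fibroblast markers were in the table and summed to 9.81 to 11.6 FPKM with the mimics and 8.58 to 9.41 in control cultures, mostly from COL1A1, with COL1A2 and PDGFRB called higher at under 1 FPKM. The 4 of 5 endothelial markers found summed to 0.706 to 0.852 and 0.615 to 0.701 FPKM, and VWF was called higher. All 6 leukocyte markers were found, at 25.7 to 29 and 31.2 to 32.5 FPKM, and most of this came from CD14, which was called lower (log2FC −0.37), CD68 and LYZ. PTPRC and CD3E, which define leukocytes and T cells, averaged under 1 FPKM. No marker found was at 0 in all libraries. The part of these shifts in the changes of the set was not tested.

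Among the writers of H3K4 methylation, 4 of 7 were lower and none was higher. The counts of this and the following classes stand beside 16.8% of all genes called lower and 23.9% called higher. SETD1A and SETD1B trimethylate H3K4 at active promoters. Positions given with a gene are those of its listed transcript on hg38. SETD1B (chr12:121804180-121830239) had 6.06, 6.81 and 7.54 FPKM with miR-204-5p mimics and 9.79, 10.4 and 9.52 with control mimics. Every culture with miR-204-5p mimics lay below every control culture, at a mean of 68.6% of the control level and a log2FC of −0.49 (standard error 0.0808, limma adjusted p = 0.00397). SETD1A followed with a log2FC of −0.40 (limma adjusted p = 0.00717).

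KMT2A (chr11:118436490-118526832), the MLL gene of leukemia translocations and the catalytic subunit of a promoter complex, had 6.0, 6.75 and 7.32 FPKM with miR-204-5p mimics and 10.1, 10.03 and 8.71 with control mimics. The groups did not overlap (log2FC −0.47, standard error 0.0866, limma adjusted p = 0.00626). KMT2C (chr7:152134922-152177968), which monomethylates H3K4 at enhancers, had 3.39, 3.84 and 3.79 FPKM against 5.93, 5.00 and 5.17 with control mimics. Again the groups were apart (log2FC −0.44, limma adjusted p = 0.00537).

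KMT2D (chr12:49018975-49055324), the second enhancer enzyme and the most abundant writer of this mark, had 10.8, 12.4 and 13.8 FPKM with miR-204-5p mimics and 15.9, 15.8 and 13.1 with control mimics. Its groups overlapped, since the highest culture with mimics exceeded the lowest control culture. Its log2FC of −0.26 (95% interval −0.51 to 0.003) missed the threshold (limma adjusted p = 0.105) and passed it without control mimics replicate 3 (log2FC −0.34, limma adjusted p = 0.0490). KMT2B stood at the threshold, without overlap between groups (log2FC −0.27, limma adjusted p = 0.0507). SETD7, a monomethyltransferase that acts on many non-histone proteins, had higher values in every culture with mimics (log2FC 0.20, limma adjusted p = 0.0541).

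The erasers of H3K4 methylation were lower too, in 4 of 6 cases. KDM1A (chr1:23019443-23083672), also called LSD1, removes mono- and dimethyl groups within the CoREST complex and was the most abundant gene of the set. It had 31.6, 31.8 and 33.1 FPKM with miR-204-5p mimics and 37.0, 38.5 and 36.8 with control mimics. All cultures with mimics lay below the controls, although the change was small, to 85.9% of the control level (log2FC −0.21, standard error 0.0381, limma adjusted p = 0.00548). KDM5A, KDM5B and KDM5C demethylate trimethylated H3K4. Their log2FC values were −0.17 (limma adjusted p = 0.0455), −0.31 (limma adjusted p = 0.00194) and −0.36 (limma adjusted p = 0.00509). The call of KDM5A did not hold when mimics library 1 or 3 or control library 1 or 2 was left out alone (limma adjusted p 0.106 to 0.127). KDM1B, the relative of KDM1A, had a log2FC of −0.002, with a 95% interval from −0.15 to 0.14. The transcript listed for KDM1B has 496 bases, where the longest annotated one has 3811. The Y-linked KDM5D enters the counts only.

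**Figure D2:**
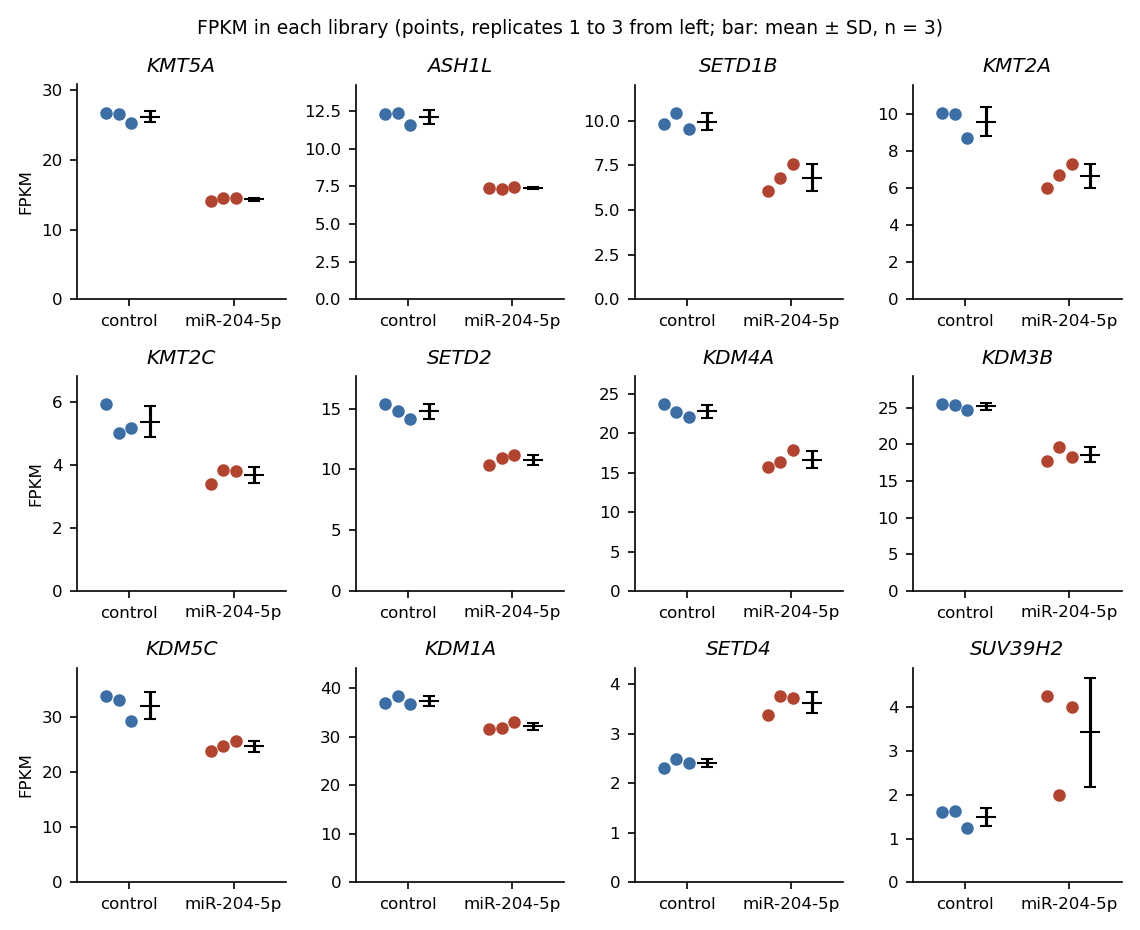
FPKM of 12 genes in each of the 6 libraries (points, blue for control mimics and red for miR-204-5p mimics) with mean and SD (n = 3); every axis starts at 0. In the 10 genes called lower all red points lie below all blue points, and in SUV39H2 the red points spread from 2.00 to 4.27 FPKM.

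Of the 7 demethylases of H3K9, 5 were lower. KDM3A and KDM3B remove mono- and dimethyl groups. KDM3B (chr5:138352596-138437027) had 17.8, 19.7 and 18.3 FPKM with miR-204-5p mimics and 25.5, 25.4 and 24.6 with control mimics, a clear separation (log2FC −0.42, standard error 0.0482, limma adjusted p = 0.000933). KDM3A (chr2:86440647-86451123), which hypoxia induces, had 6.82, 6.83 and 5.85 FPKM against 10.4, 8.11 and 9.23. The groups did not overlap (log2FC −0.45, limma adjusted p = 0.0120), but the table lists KDM3A with a transcript of 709 bases where the longest annotated one has 8741.

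KDM4A (chr1:43650158-43705515), which acts on trimethylated H3K9 and H3K36, had 15.7, 16.4 and 17.9 FPKM with miR-204-5p mimics and 23.7, 22.7 and 22.1 with control mimics. All cultures with mimics were below the controls (log2FC −0.43, standard error 0.0578, limma adjusted p = 0.00167). Its listed transcript overlaps AL451062.3 on the same strand, the one such overlap within the set. On the opposite strand, those of SUV39H2, KDM5A, KMT2B and DOT1L overlap DCLRE1C, CCDC77, IGFLR1 and PLEKHJ1. The part of such overlaps in the values was not tested. KDM4B was lower as well (log2FC −0.30, limma adjusted p = 0.00514), and so was KDM7A, a demethylase of H3K9 and H3K27 (log2FC −0.30, limma adjusted p = 0.00856). Their relatives KDM4C (log2FC −0.07, 95% interval −0.23 to 0.10) and KDM4D (0.03, −0.11 to 0.17) did not pass the test.

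Of the 6 writers of H3K9 methylation, 2 were lower (33.3%) and 1 was higher (16.7%), with a class median log2FC of 0.05. EHMT1 and EHMT2, the partners GLP and G9a that dimethylate H3K9 in euchromatin, were the lower ones. EHMT2 (chr6:31879759-31897202) had 21.0, 20.3 and 22.9 FPKM with miR-204-5p mimics and 25.5, 24.8 and 25.5 with control mimics. The groups were apart by a small margin (log2FC −0.23, standard error 0.0519, limma adjusted p = 0.0130). EHMT1 had a log2FC of −0.31 (limma adjusted p = 0.0247), and missed the threshold when mimics library 1 or 2 or control library 1 or 2 was left out (limma adjusted p 0.0531 to 0.0743).

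SUV39H2 (chr10:14878820-14904315), which trimethylates H3K9 in heterochromatin, had 4.27, 2.00 and 4.01 FPKM with miR-204-5p mimics and 1.6, 1.63 and 1.25 with control mimics. All cultures with mimics were above the controls, yet replicate 2 was close to them (log2FC 0.79, 95% interval 0.27 to 1.31, limma adjusted p = 0.0273). The call held without that replicate, but not without any one of the other 5 libraries (limma adjusted p 0.0604 to 0.0830), and the transcript listed for the gene is annotated as a target of nonsense-mediated decay. SUV39H1, which methylates the same residue, had a log2FC of 0.08 (95% interval −0.04 to 0.20). SETDB1, the enzyme recruited by TRIM28 to retroelements, had 0.07 (−0.06 to 0.20), and SETDB2 had 0.03 (−0.14 to 0.21). The transcript listed for SETDB1 has 587 bases, where the longest annotated one has 4437.

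Of the writers of H3K36 methylation, 3 of 5 were lower. ASH1L (chr1:155335268-155562693), a Trithorax-group enzyme that dimethylates H3K36, had the second largest decrease of the set. It had 7.38, 7.34 and 7.45 FPKM with miR-204-5p mimics and 12.3, 12.4 and 11.6 with control mimics. The cultures with mimics were tightly grouped at 61.1% of the control level (log2FC −0.64, standard error 0.0474, limma adjusted p = 0.000195).

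SETD2 (chr3:47016429-47123787), which trimethylates H3K36, had 10.3, 10.9 and 11.2 FPKM with miR-204-5p mimics and 15.4, 14.8 and 14.2 with control mimics. No values overlapped (log2FC −0.42, standard error 0.0515, limma adjusted p = 0.00121), and the listed transcript is annotated as a decay target. NSD3 was lower (log2FC −0.26, limma adjusted p = 0.0303), but not when mimics library 1 or 2 or control library 1 or 2 was left out (limma adjusted p 0.0665 to 0.0862). NSD1 varied from 5.08 to 11.8 FPKM among cultures with mimics, on a listed transcript of 533 bases, and its log2FC of −0.06 had a 95% interval from −0.69 to 0.56. NSD2 (0.15, −0.20 to 0.50) did not pass either.

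The demethylases of H3K36 were divided. KDM2B, which also brings a variant PRC1 complex to CpG islands, was lower (log2FC −0.31, limma adjusted p = 0.00782). Its relative KDM2A (chr11:67119269-67257665) had 34.1, 21.4 and 24.4 FPKM with miR-204-5p mimics and 29.7, 27.7 and 24.3 with control mimics. The spread among cultures with mimics exceeded the difference between groups (log2FC −0.05, 95% interval −0.45 to 0.35). KDM8, first described as an H3K36 demethylase, was near 1 FPKM and higher in each culture with mimics (log2FC 0.22, limma adjusted p = 0.0529).

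KMT5A (chr12:123383773-123409351), the monomethyltransferase of H4K20 whose level is tied to the cell cycle, had the largest decrease of the set. It had 14.1, 14.5 and 14.5 FPKM with miR-204-5p mimics and 26.8, 26.6 and 25.3 with control mimics. The mimics reduced it to 54.8% of the control level, from 26.2 ± 0.817 to 14.4 ± 0.217 FPKM (SD, n = 3; log2FC −0.82, standard error 0.0405, limma adjusted p = 6.57e-05). KMT5B and KMT5C add further methyl groups to H4K20. KMT5B was lower without overlap but missed the threshold (log2FC −0.23, limma adjusted p = 0.0611), and KMT5C had a log2FC of 0.11 (95% interval −0.04 to 0.25). DOT1L, the H3K79 methyltransferase, had 0.08 (−0.10 to 0.25). Differences between paralogs in their response were not tested.

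KDM6B (chr17:7839904-7854796), an inducible demethylase of trimethylated H3K27, had 9.58, 10.1 and 11.6 FPKM with miR-204-5p mimics and 15.1, 15.1 and 12.3 with control mimics. The groups came close without overlapping (log2FC −0.41, standard error 0.101, limma adjusted p = 0.0190), and the threshold was missed when mimics library 1 or 2 or control library 1 or 2 was left out (limma adjusted p 0.0606 to 0.0631). KDM6A, or UTX, had a log2FC of 0.09 (95% interval −0.09 to 0.27). The H3K27 methyltransferases themselves, outside the set, had log2FC values of −0.07 for EZH1 (limma adjusted p = 0.264) and −0.06 for EZH2 (limma adjusted p = 0.497).

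Of the 6 SET-domain proteins with other or unsettled substrates, KMT2E was lower (log2FC −0.37, limma adjusted p = 0.00655) and SETD4 was higher. SETD4 (chr21:36034541-36060261) had 3.37, 3.77 and 3.72 FPKM with miR-204-5p mimics and 2.31, 2.48 and 2.41 with control mimics, the one increase of the set that held in each fit that left out a library (log2FC 0.44, standard error 0.0632, limma adjusted p = 0.00224). SETD5 (chr3:9397615-9440698) had 25.5, 28.9 and 31.0 FPKM against 31.9, 33.3 and 30.7. These groups overlapped (log2FC −0.17, limma adjusted p = 0.122), and the transcript listed for SETD5 is annotated as a decay target. SETD3, an actin histidine methyltransferase (log2FC −0.08), SETD6, which methylates the NF-κB subunit RELA (0.002), and SETD9 (0.08) did not pass the threshold.

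The genes of the set have long mRNAs, with a median listed length of 5348 bases against 2562 for all genes, and in the whole table longer transcripts were more often lower. At mean levels of 1 FPKM or more, 14.8% of those with listed transcripts under 2000 bases were called lower, 20.4% of those from 2000 to under 5000 bases and 29.7% of those with at least 5000 bases. In the same length classes of the set, 1 of 6, 4 of 12 and 17 of 24 genes were lower. Each of the 6 genes under 2000 bases has a longer annotated transcript, of which the listed one makes up 4.13% (NSD1) to 26.7% (SETD5). The length classes of the set thus follow the transcript that was listed, not the longest mRNA. The median log2FC at 5000 bases or more was −0.31 for the 24 genes and −0.05 for the 2183 genes of that class. The part of transcript length in the decreases was not tested.

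**Figure D3:**
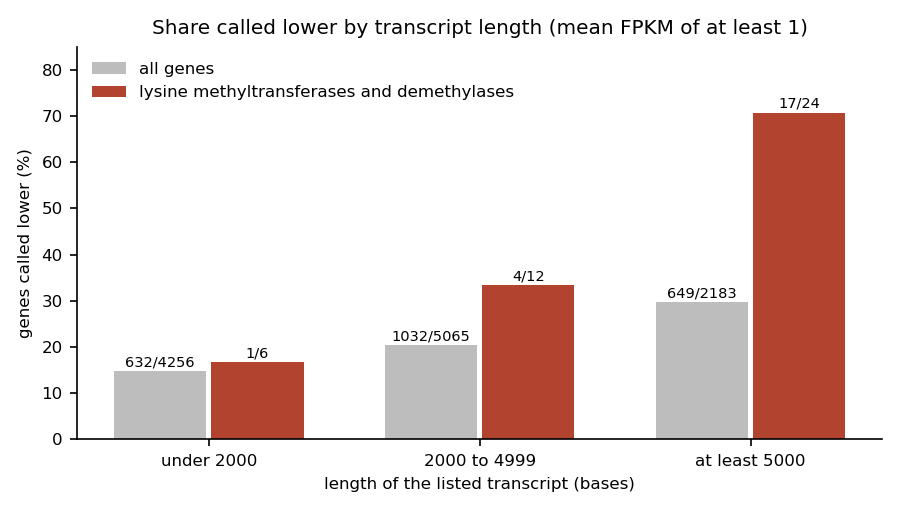
Share of genes called lower with miR-204-5p mimics (y axis, percent; limma adjusted p under 0.05) by length of the listed transcript (x axis, bases), for all genes averaging 1 FPKM or more (grey) and for the genes of the set (red), with counts above the bars. At 5000 bases or more, 17 of 24 genes of the set were lower, beside 649 of 2183 of all genes. The 6 genes of the set under 2000 bases are each listed with a transcript much shorter than their longest annotated one.

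Seed matches were about as frequent in the set as in the table. The longest 3'UTR held an 8mer in 3 of the 46 genes, a 7mer-m8 as the strongest match in 7 and a 7mer-A1 in 5, together 32.6%, against 27.1% of the 14664 genes with an annotated 3'UTR (8.6%, 9.83% and 8.66% by class). Of the 15 genes with a match 7 were lower, and of the 31 without one 15 were lower. Over all genes, the shares were 27% with a match and 13.5% without, and the median log2FC values −0.03 and 0.06. Within the set the shares were 46.7% and 48.4%, and the medians −0.17 and −0.23, so that KMT5A and ASH1L stood beside SETD1B and KMT2C, which lack these letters in the 3'UTR searched. A difference between these shares was not tested.

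Within the 8mer genes, KMT5A carried a single site 61 bases into its 3'UTR, NSD3 carried 2 sites, and SETDB2 had a site with no change past the threshold. ASH1L and KDM5C were the 7mer-m8 genes called lower, whereas KDM2A, with 2 such sites, DOT1L, NSD1, KMT2D and SETD7 were not called. KMT2A, KDM1A and KDM5A were called among the 7mer-A1 genes, and SETD5 and SUV39H1 were not. The largest decreases without any match were those of SETD1B, KDM3A and KMT2C, although the longest annotated 3'UTR of KDM3A has 597 bases and that of SETD2 404.

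**Figure D4:**
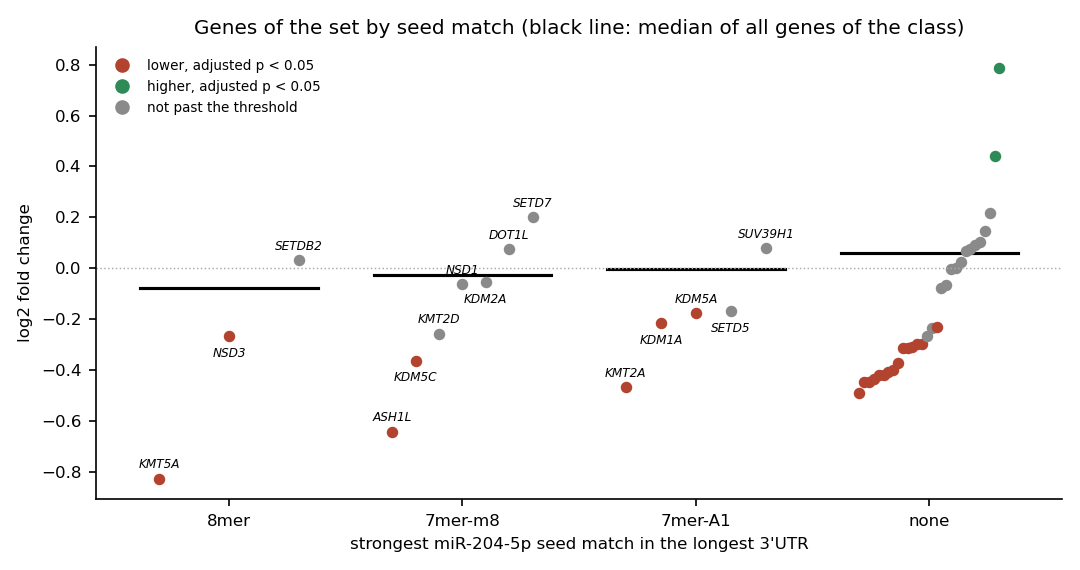
Log2FC (y axis) of 45 genes of the set by the strongest miR-204-5p seed match in the longest annotated 3'UTR (x axis); black lines give the median over all genes of the class. KMT5A at −0.82 leads the 8mer genes, and the class without a match holds 15 genes called lower and both genes called higher.

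Partners of these enzymes were compared from lists written from general knowledge, and no list was tested as a group. Of 15 subunits of COMPASS complexes, which activate the H3K4 writers, 4 were lower and 4 higher, with a median log2FC of −0.05. This is 26.7% in each direction, beside 16.8% of all genes called lower and 23.9% called higher. The lower ones were WDR82, which binds SETD1A and SETD1B (log2FC −0.60, limma adjusted p = 0.000127), RBBP5 (−0.48), NCOA6 (−0.43) and CXXC1 (−0.16). NCOA6 is a subunit of KMT2C and KMT2D complexes, and CXXC1 was close to the threshold (limma adjusted p = 0.0462). WDR5, ASH2L and DPY30, shared subunits like RBBP5, were higher (log2FC values 0.35, 0.33 and 0.18), as was PSIP1 (0.26). The counts were 3 lower and 3 higher without mimics library 1, and also without mimics library 2.

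For the KDM1A complex, 5 of 11 genes were lower (45.5%) and 2 higher (18.2%), beside 16.8% and 23.9% of all genes. HDAC1 (log2FC −0.995), RCOR2 (−0.35), ZMYM2 (−0.34) and RCOR1 (−0.29) were among the lower ones, and HDAC2 (0.26) and HMG20B (0.17) higher. Of 6 partners of DOT1L, which itself did not pass, AFF1, MLLT6, MLLT1 and AFF4 were lower (66.7%), with log2FC values from −0.29 to −0.17. The count fell to 2 when mimics library 1, control library 1 or control library 2 was left out. In the KDM2B complex RYBP (−0.24) and RING1 (−0.21) of 8 genes were lower. Of 11 partners and readers of H3K9 methylation, CBX1 (−0.18) was lower and UHRF1 (0.38), PPHLN1 (0.30) and CBX3 (0.26) were higher.

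Related enzymes that the symbols left out were compared as well. Of 12 other lysine methyltransferases, SMYD4 alone passed, lower with a log2FC of −0.27 (limma adjusted p = 0.00570). Of 14 other JmjC proteins, HR (−0.83), JMJD6 (−0.80), JARID2 (−0.48), PHF2 (−0.46) and PHF8 (−0.24) were lower, and HSPBAP1 (0.42) and JMJD8 (0.40) were higher. The shares lower were 8.33% and 35.7% in these lists, beside 16.8% of all genes. The shares higher were 0% and 14.3%, beside 23.9%.

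**Figure D5:**
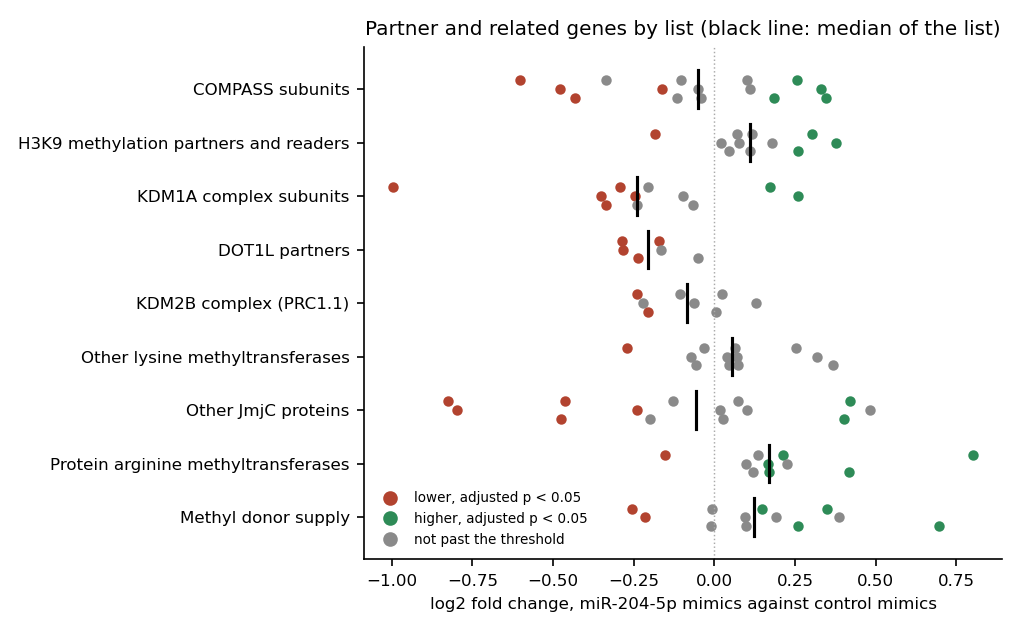
Log2FC (x axis) of partner and related genes by list (rows); points are genes, colored by their call, and black lines are list medians. Points called lower outnumber those called higher for the KDM1A complex (5 and 2) and for DOT1L partners (4 and 0), and the reverse holds for protein arginine methyltransferases (1 and 5). Of all genes, 16.8% were called lower and 23.9% higher.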

How the data were processed

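RNA-seq libraries (Illumina TruSeq, HiSeq X) were made from 3 cultures per group. The FPKM values were computed by the authors, and the submitters' processing notes name HISAT2, StringTie and hg38, without versions or annotation. Of the listed transcripts, 14946 were found in GENCODE 29. The deposited fold changes and p-values hold the authors' own edgeR comparison and were not used. Whether an FPKM value covers the listed transcript alone or the whole gene is not given in the sources used here.

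As the table holds no counts, log2(FPKM + 1) was fitted with limma 3.58.1 (R 4.3.3) for all 14959 genes with lmFit and a mean-expression trend in eBayes, two-sided and unfiltered, with Benjamini-Hochberg adjustment at 0.05. The fold changes on this scale understate those of low genes. Tables and figures were made with pandas 2.3.3 and matplotlib 3.10.9 in Python 3.11.15. The limma step was tested on simulated data. Depth is not stated in the table. Low values of 1165 genes with 1 annotated transcript moved in steps that would correspond to 26.1 to 32.8 M fragments per library, but only 43.4% to 62.2% of them were whole multiples of the step (tolerance 0.02), so counts were not recovered and the depths, which overlap between groups, are estimates that could be off by a whole factor.

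The genes of the set and the lists were chosen with earlier results of these data known. Values per library are given for the 10 largest decreases and all increases past the threshold and for the most abundant gene of each class. From the partner lists, genes past the threshold may be named. Some genes of the partner and marker lists are not reported here by name. The alternatives were a replicate block, a pseudocount of 0.1, a filter at a mean of 1 FPKM, leaving out each library, 3 scalings (equal sums, equal medians, quantile normalization) and 2 other choices of 3'UTR.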

Additional observations from a re-analysis of the deposited data

How the results depend on the processing

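The number of genes of the set called lower was 22 with all libraries. Over the other settings that kept at least 5 libraries it was 18 to 24, beside 13.7% to 21.1% of all genes. The median log2FC of the set stayed from −0.26 to −0.19. The number of genes of the set called higher was 1 to 2 when 1 library was left out, beside 19.2% to 21.0% of all genes. With the replicate number as a block, 18 genes of the set were lower and 3 higher, and EHMT1, KDM5A, KDM6B and NSD3 lost their calls. Deviations from the group mean correlated at −0.11 to −0.02 between same-numbered cultures and at −0.07 to 0.11 between the others. With 3 cultures per group, the deviations within a group constrain each other. These correlations therefore cannot decide whether the numbers pair cultures, and the main fit treats them as unpaired. Equal sums, equal medians and quantile normalization each gave 24 lower and 2 higher genes in the set. Of all genes, these scalings called 18.4% to 20.2% lower and 20.3% to 22.3% higher, against 16.8% and 23.9% in the main fit. An alternative chosen after the data had been seen left out mimics replicate 1 and control mimics replicate 3. It called 15 genes of the set lower and 1 higher. In the partner lists, of 6 to 15 genes each, it called 11 genes lower and 12 higher, against 25 and 20 with all libraries. Of all genes, it called 11.7% lower and 16.5% higher, against 16.8% and 23.9%. Leaving out single libraries gave 18 to 23 lower and 18 to 21 higher genes in the lists. Over all genes these fits called 13.7% to 15.2% lower and 19.2% to 21.0% higher. Genes that were not called changed sign in some fits, and the cause was not tested. Over the fits that left out 1 or both of these libraries or any other single library, the log2FC of SETD6 ran from −0.0505 to 0.0660, NSD2 from −0.0259 to 0.262, SETDB2 from −0.00302 to 0.108, KDM1B from −0.0363 to 0.0486, NSD1 from −0.299 to 0.24, KDM2A from −0.314 to 0.0862 and KDM4D from −0.0314 to 0.0579. SETD6 was −0.0334 with equal sums, −0.0169 with equal medians and −0.0686 with quantile normalization, where SETDB2 was −0.0508 and KDM4D −0.0334. With any annotated 3'UTR, 19 genes of the set had a seed match and 8 of them were lower, beside 14 of the 27 without one. Over all genes, 26.4% with a match and 13.3% without were lower. For 39 genes of the set the listed transcript had a 3'UTR to search. There 14 had a match and 7 of them were lower, beside 12 of the 25 without one. The shares over all genes were 29.4% and 13.8%. These differences were not tested. Replicate spread limited a few genes most, with 95% intervals from −0.69 to 0.56 for NSD1, −0.45 to 0.35 for KDM2A and −0.20 to 0.50 for NSD2.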

Other observations

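Protein arginine methyltransferases methylate histones and RNA-binding proteins on arginine. Of 10 genes listed for them, WDR77 as a partner included, 5 rose and 1 fell with miR-204-5p mimics, beside 23.9% of all genes called higher and 16.8% called lower. The list as a group was not tested. PRMT3, which methylates a ribosomal protein, rose from 9.14 ± 0.639 FPKM in the control cultures to 16.7 ± 1.58 (SD, n = 3) (log2FC 0.80, limma adjusted p = 0.000570). WDR77, the partner of PRMT5, rose by 0.42 on the log2 scale (limma adjusted p = 0.00411), and PRMT6, PRMT1 and PRMT5 rose by 0.21, 0.17 and 0.17. PRMT2 had a log2FC of −0.15 (limma adjusted p = 0.0340), a call that held only without mimics library 1 when single libraries were left out.

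Of 12 genes that supply the methyl donor S-adenosylmethionine or clear its product, 4 rose (33.3%) and 2 fell (16.7%), beside 23.9% and 16.8% of all genes. MTHFD1, of the folate cycle, rose from 15.1 ± 0.701 to 25.1 ± 0.886 FPKM (log2FC 0.70, limma adjusted p = 0.000173). AHCY, which hydrolyses S-adenosylhomocysteine, rose from 130.1 ± 3.18 to 166 ± 2.72 FPKM (log2FC 0.35, limma adjusted p = 0.000538). SHMT2 (0.26) and MAT2B (0.15) rose, and AHCYL2 (−0.25) and SHMT1 (−0.22) fell. Leaving out single libraries left 0 or 1 of these decreases past the limma threshold.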
